A study of Mus musculus with 4 samples.

Results

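Gata6 and 9 other genes of the primitive endoderm were examined in untreated F123-ESCs, 10 genes of the 24026 listed in the RNAseq table. They were taken by symbol and comprise the transcription factor genes Gata6, Gata4, Sox17 and Sox7, the receptor gene Pdgfra, the endocytic adaptor gene Dab2 and the matrix genes Sparc, Lama1, Lamb1 and Lamc1. F123-ESCs are a male embryonic stem cell line from an F1 cross of a maternal S129/Jae and a paternal CAST genome, so reads over a SNP can be assigned to an allele. The cells had been kept on inactivated fibroblast feeders in medium with LIF and 15% KSR, were moved onto feeder-free gelatin for at least 2 passages and were harvested about 48 h after plating. There was 1 condition with 4 libraries, replicates 1 to 4, of polyadenylated RNA read at 2×150 bp, and nothing states whether they came from separate cultures, so every p-value measures only the spread between these libraries. The study asked how genomic contacts with nucleoli are distributed between cells and alleles, and the RNAseq gives the expression of each allele in the hybrid line.

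The primitive endoderm is the extraembryonic lineage that separates from the epiblast in the inner cell mass of the blastocyst and later forms visceral and parietal endoderm. FGF4 from epiblast cells acts through FGF receptors and ERK to favour GATA6 over NANOG, and GATA6 then acts upstream of Pdgfra, Sox17, Gata4 and Sox7. The cells of this lineage lay down a basement membrane whose main laminin is built from the chains encoded by Lama1, Lamb1 and Lamc1, and the same genes are known from parietal endoderm. Several of them, among them Sparc, Lamb1, Lamc1 and Pdgfra, are also expressed by fibroblasts.

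The values are RPKM of one allele in one library, so each gene has 8. Between 16716721 and 28772351 reads stood behind a column, and 1 read on 1000 bp of gene was worth 0.0348 to 0.0598 RPKM. A level is the mean of both alleles, given as mean ± SD over the 4 libraries. Reads that cover no SNP enter no value, so the level of a gene also depends on the SNPs it holds, and levels of different genes are compared with that limit. RPKM also divides by a gene length, and the length recovered from the table was often that of the first transcript listed for a gene. For this reason levels are also given per length of all annotated exons (GENCODE M21, mm10), which assumes that reads on all exons had been counted. This was not given in the sources used here.

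The 10 genes spanned levels from 0.273 ± 0.019 RPKM for Sox7 to 120 ± 9.56 RPKM for Sparc. Of the 10 genes, 8 reached 1 RPKM, compared with 49.7% of all listed genes. Per length of all exons 5 of the 10 did, compared with 53.6% of the 19132 genes with recovered reads, so the count did not stand out on that scale. The 49.7% includes genes at 0 in every column and the 53.6% does not, so these shares have unlike bases. The 4 matrix genes and Dab2 stood above 10 RPKM, Pdgfra, Gata6 and Gata4 lay between 1.03 and 3.31 RPKM, and both Sox genes were below 1 RPKM. In these bulk libraries fewer expressing cells and less RNA per cell cannot be told apart.

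**Figure D1:**
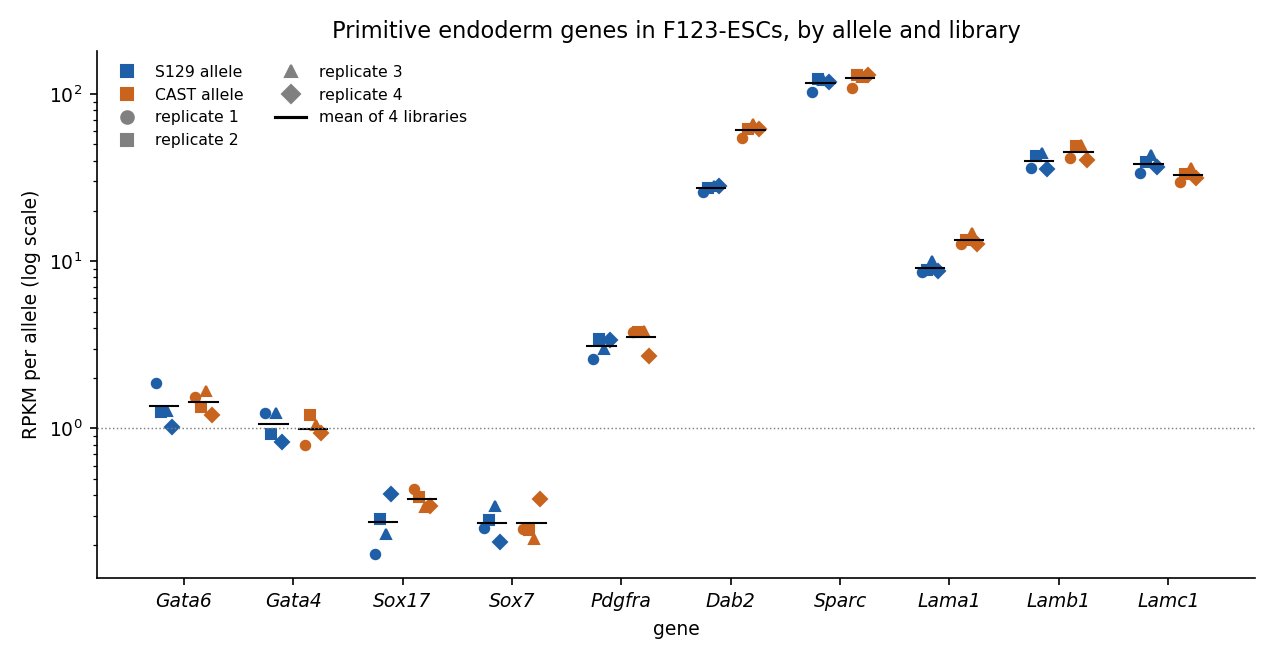
RPKM of the S129 (blue) and CAST (orange) allele on a log scale for each of the 10 genes, with 1 symbol per library and a black bar for the mean of the 4 libraries. The 2 alleles lie fully apart for Dab2 and Lama1 and overlap for the other 8 genes, all values of Sox17 and Sox7 lie below the dotted line at 1 RPKM, and those of Gata4 lie on both sides of it.

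Gata6 encodes the zinc finger factor that stands at the head of the primitive endoderm programme, and lies on rDNA-chromosome 18 (chr18:11052064-11085635, plus strand, mm10), at 12.2% of the chromosome's length. Its level was 1.70, 1.30, 1.47 and 1.11 RPKM in replicates 1 to 4, with a mean of 1.40 ± 0.25 RPKM. Replicate 1 was the highest and replicate 4 the lowest, a range of 1.53-fold. Gata6 had the largest spread between libraries of the 10 genes, with an SD of 0.24 on the log2(RPKM + 0.1) scale beside a median of 0.14 over 12513 genes. The columns held 57 to 171 reads, and the variance between libraries was 6.41 times that from counting alone, with a median of 6.39 over these genes. Both values rest on a gene length of 3194 bp that was found by search. A length of 6388 bp also gives whole reads, but every column would then hold an even number of reads. That length is less likely for this reason. With it the reads would be doubled and the ratio would be 12.8.

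The S129 allele of Gata6 had 1.86, 1.26, 1.28 and 1.03 RPKM in replicates 1 to 4. The CAST allele had 1.54, 1.35, 1.67 and 1.20 RPKM. The 2 alleles overlapped, and S129 was the higher one in replicate 1 alone. The S129 share of the reads was 49.0% ± 4.8 (SD, n = 4), and in replicate 1 it was 55.5% with an exact 95% binomial interval from 49.8% to 61.2% that takes in counting error alone. With the less likely length of 6388 bp the interval would be 51.5% to 59.5% and leave out 50%. Unlike RPKM, the shares are not divided by the total reads of each allele. In replicate 1 these totals were 28772351 for S129 and 27855621 for CAST, so 50% is not exactly the share of equal alleles. Tested as all other genes were, S129 and CAST did not differ past the threshold on the log2(RPKM + 0.1) scale, which understates the difference of low genes (log2 S129 minus CAST −0.10, SE 0.11, limma on the differences within each library, Benjamini-Hochberg adjusted p = 0.471). The nearest tested protein-coding genes on both sides differed slightly, with Mib1 at 0.17 (adjusted p = 0.00731, limma) and Rbbp8 at 0.19 (adjusted p = 0.029, limma), S129 being higher in 4 of 4 libraries for each.

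Among 12258 protein-coding genes, those with values most like Gata6 over the 8 columns were Bcas1, Ttc7 and Mfsd2a. Their root mean square differences from Gata6 were 0.16, 0.17 and 0.18 on the log2(RPKM + 0.1) scale. These lie on chromosomes 2, 17 and 4. The measure takes in level and change between libraries together, so it does not show that their changes were alike.

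Gata4 encodes a second GATA factor of the extraembryonic endoderm. Its level was 1.02, 1.06, 1.14 and 0.887 RPKM in replicates 1 to 4, with a mean of 1.03 ± 0.107 RPKM. The S129 allele had 1.24, 0.924, 1.23 and 0.834 RPKM and the CAST allele had 0.798, 1.20, 1.05 and 0.940 RPKM. The alleles overlapped and changed places between libraries, S129 being higher in 2 of 4. The difference did not pass the test (log2 0.07, SE 0.17, limma adjusted p = 0.746), and without replicate 1 it was −0.10 (adjusted p = 0.562, with 0.356 to 0.938 over all alternatives). Neil2, a DNA glycosylase gene 5.07 kb from Gata4, differed by 4.70-fold with S129 higher in 4 of 4 libraries; Fam167a on the other side differed by 0.09 (limma adjusted p = 0.354).

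Sox17 and Sox7 encode SRY-related HMG box factors of the endoderm and endothelium. The level of Sox17 was 0.307, 0.338, 0.286 and 0.374 RPKM in replicates 1 to 4, and that of Sox7 was 0.252, 0.265, 0.282 and 0.295 RPKM. As deposited, Sox17 was above Sox7 in every library, and 3 of the 4 Sox17 values lay above all values of Sox7. Per length of all exons Sox7 was instead above Sox17 in 4 of 4 libraries, by 1.19-fold and with ranges that did not overlap. The columns held only 16 to 38 reads for Sox17 and 12 to 28 for Sox7, and the spread between libraries was below that of counting alone, at 0.609 and 0.190 times its variance. Both genes were below the filter of 1 RPKM in both alleles together and were not tested with the other genes. Without this filter the log2 differences were −0.37 (SE 0.20, limma adjusted p = 0.208) for Sox17 and 0.002 (SE 0.20, limma adjusted p = 0.996) for Sox7, which does not show that the alleles were alike.

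Pdgfra encodes the PDGF receptor alpha, an early surface marker of the primitive endoderm. Its level was 3.18, 3.62, 3.40 and 3.05 RPKM in replicates 1 to 4, with a mean of 3.31 ± 0.251 RPKM. The S129 allele had 2.60, 3.44, 2.99 and 3.40 RPKM and the CAST allele had 3.76, 3.80, 3.81 and 2.70 RPKM. CAST was higher in replicates 1 to 3 and S129 in replicate 4, where CAST had its lowest value. Over all 4 libraries the difference did not pass the test (log2 −0.17, SE 0.15, limma adjusted p = 0.378), while without replicate 4 it was −0.33 and passed (adjusted p = 0.047, with 0.047 to 0.789 over all alternatives). Of its neighbours, Kit, another receptor kinase gene 377 kb away, was higher on CAST (log2 −0.61, limma adjusted p = 0.00112), and Chic2 at 108 kb did not pass (log2 −0.16, limma adjusted p = 0.0889). Of the PDGF ligands, Pdgfa had the highest level at 16.4 RPKM, followed by Pdgfc at 6.06 RPKM. Among the 5 other PDGF ligand and receptor genes 4 reached 1 RPKM, compared with 49.7% of all listed genes. With all exons 3 did, with reads of 1 gene not recovered, compared with 53.6% of genes with recovered reads. In this list 2 of 5 tested genes were higher on S129, among them the related receptor gene Pdgfrb (log2 0.55), and 1 was higher on CAST.

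Dab2 encodes an adaptor of clathrin-mediated endocytosis that is known for its role in the apical sorting of endoderm cells. It lies at chr15:6299788-6440712 (plus strand, mm10), and its annotated transcripts start in 2 separate groups. One group holds the first listed transcript, a processed transcript of 642 bp, whose length explained the RPKM of the gene. The 300 bp around each RefSeq start (250 bases before it and 50 after, build GRCm38.p6, plus strand) are shown because Dab2 had the largest allele difference of the 10 genes, with matches to the GATA motif in capitals.
Dab2 upstream start, chr15:6299539-6299838: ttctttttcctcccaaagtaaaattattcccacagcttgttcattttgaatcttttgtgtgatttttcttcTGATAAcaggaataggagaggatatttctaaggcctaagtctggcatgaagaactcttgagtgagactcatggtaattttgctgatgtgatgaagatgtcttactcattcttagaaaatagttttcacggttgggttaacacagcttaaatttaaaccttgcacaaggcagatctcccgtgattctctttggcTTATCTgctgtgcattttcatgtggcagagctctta
Dab2 downstream start, chr15:6386498-6386797: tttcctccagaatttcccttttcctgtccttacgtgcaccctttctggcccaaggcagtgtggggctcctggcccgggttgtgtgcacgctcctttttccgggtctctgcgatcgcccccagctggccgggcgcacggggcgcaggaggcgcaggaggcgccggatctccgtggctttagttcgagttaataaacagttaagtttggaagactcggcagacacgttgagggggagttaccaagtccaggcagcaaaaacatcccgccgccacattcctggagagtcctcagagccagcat

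The upstream window had a GC content of 37.7%, 2 CpG and 2 matches to AGATAA or TGATAA on either strand. The downstream window had a GC content of 59.3%, 19 CpG and no such match, whereas the median of all 32851 windows was 52.7% GC and 7 CpG. A GATA match was present in 18.6% of all windows and a match to the SOX letters ACAATG or ACAATA in 19.7%. Pdgfra, Sparc, Lamb1 and Dab2 were the 4 of 10 genes with a window in the RefSeq table, and of their 5 windows the upstream one of Dab2 was the only one with a GATA match, and none had a SOX match. The letters are those of the C57BL/6J reference and the S129 and CAST bases were not analysed here, so the matches describe the reference only.

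The S129 allele of Dab2 had 26.1, 27.5, 28.2 and 28.0 RPKM in replicates 1 to 4. The CAST allele had 54.5, 61.7, 66.1 and 61.6 RPKM. Every CAST value was above every S129 value. The S129 share was 31.9% ± 0.99 (SD, n = 4) of 974 to 1456 reads per library, and the exact 95% binomial intervals of the 4 libraries lay between 28.3% and 35.6%. CAST was 2.21-fold higher (log2 S129 minus CAST −1.14, SE 0.04, limma adjusted p = 6.0e-05), lower on S129 in 4 of 4 libraries.

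Of the 8 genes that were tested, 4 passed the adjusted threshold of 0.05, 3 of them with CAST and 1 with S129 higher. Among all 13341 genes tested 62.7% passed, 31.4% with S129 and 31.3% with CAST higher, so the share among the 8 genes was no larger than that of genes at large. With every column rescaled to one sum, 4669 genes were higher on S129 and 3411 on CAST, instead of 4187 and 4182. The 4 calls among the 8 genes kept their direction under that scaling. Alleles did not overlap over the 4 libraries in 2 of the 8 genes and in 45.6% of all tested genes. The median size of the difference was 0.18 on the log2 scale for the 8 genes and 0.29 for all autosomal genes tested. The difference of Dab2 was exceeded by 10.3% of the 12869 autosomal genes tested.

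**Figure D2:**
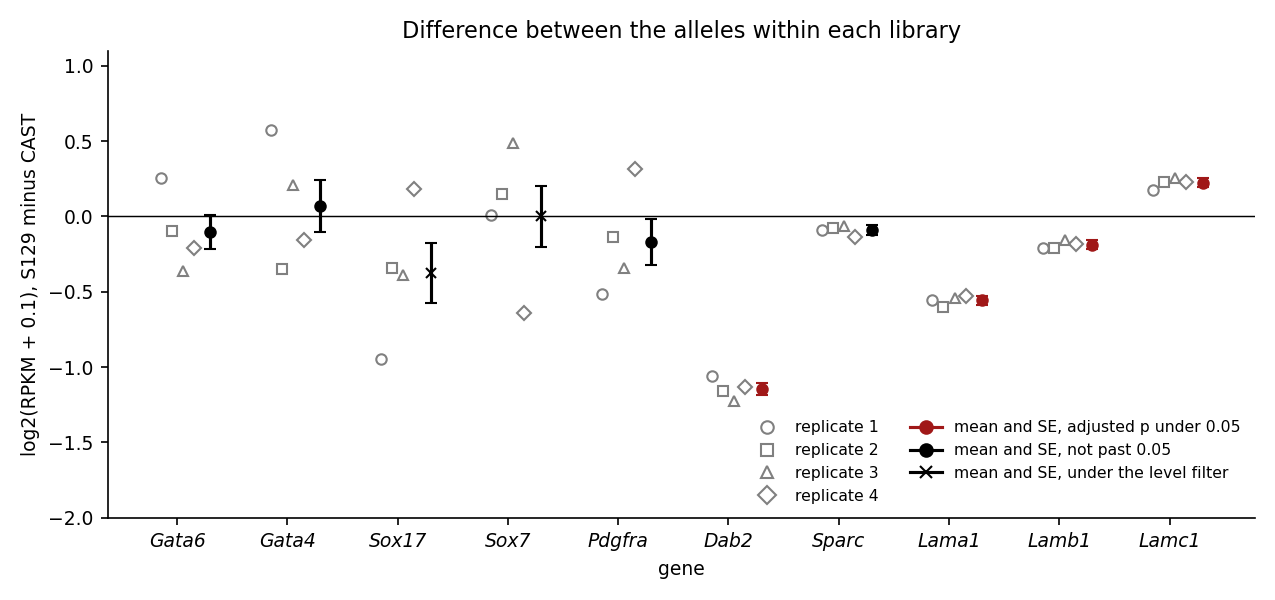
Log2(RPKM + 0.1) of S129 minus CAST for each library (grey symbols) with the mean and SE of the 4 libraries (right of the symbols), in red where the adjusted p passed 0.05 and as a cross for the 2 genes below the level filter. Dab2, Lama1 and Lamb1 lie below 0 and Lamc1 above 0 in every library, and the libraries of the 4 transcription factor genes and of Pdgfra fall on both sides of 0.

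The CAST allele was also higher at 1 neighbour of Dab2. Ttc33, at 1081 kb, differed by −0.25 (limma adjusted p = 0.0123), and Rictor, at 268 kb on the other side, by −0.09 (limma adjusted p = 0.115). Both differences were smaller in size than that of Dab2. Among 8 endocytic partner genes 7 reached 1 RPKM as deposited, compared with 49.7% of all listed genes. With all exons 7 did, compared with 53.6% of genes with recovered reads. In this list 2 genes were higher on S129 and 2 on CAST, beside 31.4% and 31.3% of all genes tested. Of the endocytic partner genes that passed, Lrp2, the gene of the cargo receptor megalin that DAB2 binds, had the largest difference. It was higher on S129 (log2 1.54), the direction opposite to Dab2. The clathrin heavy chain gene Cltc had the highest level of the list, at 29.8 RPKM.

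Among the 10 genes, the level of Dab2 depended most on gene length. As deposited it was 40.3, 44.6, 47.1 and 44.8 RPKM in replicates 1 to 4, with a mean of 44.2 ± 2.85 RPKM. All annotated exons of Dab2 cover 7342 bp, 11.4 times the 642 bp used. Per length of all exons its level was 3.87 ± 0.249 RPKM, and per length of the longest transcript it was 6.09 RPKM. Both alleles of a gene were divided by the same length, so their ratio did not depend on it. The length does set how far the added 0.1 pulls a log2 difference towards 0 and whether a gene passed the filter of 1 RPKM.

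**Figure D3:**
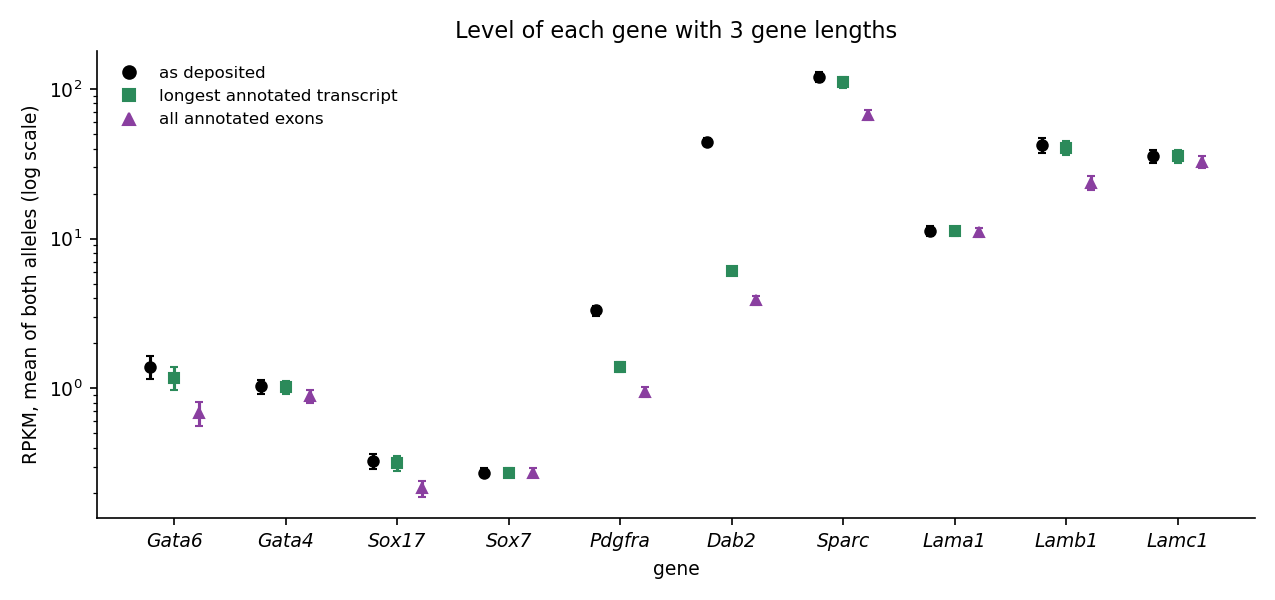
Level of each gene (mean of both alleles, log scale, mean and SD of 4 libraries) as deposited (black), per length of the longest transcript (green) and per length of all annotated exons (purple). Dab2 falls from 44.2 to 3.87 RPKM and Pdgfra from 3.31 to 0.950 RPKM, while Sox7, Lama1 and Lamc1 hardly move.

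In the deposited values the order was Sparc, Dab2, Lamb1, Lamc1, Lama1, Pdgfra, Gata6, Gata4, Sox17 and Sox7. Of the 9 pairs of neighbours, 8 kept their order in all 4 libraries and 5 had ranges that did not overlap. Dab2 and Lamb1 did not keep it and differed by 1.05-fold (exact sign-flip permutation test, two-sided, p = 0.375). With 4 libraries this test cannot give less than 0.125, and the other 8 pairs were at that value (0.141 adjusted over the 9 pairs), so no pair could reach 0.05.

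Per length of all exons the order was Sparc, Lamc1, Lamb1, Lama1, Dab2, Pdgfra, Gata4, Gata6, Sox7 and Sox17. Dab2 thus stood below the 3 laminin genes, and Gata6 below Gata4, with 0.686 ± 0.123 against 0.888 ± 0.093 RPKM. Gata6 and Gata4 kept this order in 4 of 4 libraries but their ranges overlapped. Pdgfra, at 0.950 ± 0.072 RPKM, did not keep its order over Gata4 in every library (exact p = 0.25). The length of 3194 bp behind this level of Gata6 matched no annotated transcript. With 6388 bp, the less likely length, Gata6 would be at 1.37 ± 0.246 RPKM, above Gata4 and Pdgfra. On that length 6 of the 10 genes would reach 1 RPKM, and the place of Gata6 in this order depends on it. The length of Lama1 was found in the same way.

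Sparc encodes a calcium-binding glycoprotein of basement membranes that binds collagen, and it had the highest level of the 10 genes on each length. Its level was 106, 127, 124 and 125 RPKM in replicates 1 to 4, replicate 1 lying apart below the other libraries. The S129 allele had 103, 123.3, 121 and 119 RPKM and the CAST allele had 109, 130, 127 and 131 RPKM. CAST was higher in 4 of 4 libraries by a small amount, and the ranges overlapped. The difference of −0.09 on the log2 scale (SE 0.03) did not pass the test (limma adjusted p = 0.062), but it passed when only genes of at least 5 RPKM in both alleles together were tested (adjusted p = 0.039, with 0.039 to 0.600 over all alternatives). Both of its neighbours were higher on CAST in 4 of 4 libraries, Atox1 at 23.5 kb by −0.11 (limma adjusted p = 0.041) and Slc36a1 at 158 kb on the other side by −0.58 (limma adjusted p = 0.00591).

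Lama1, Lamb1 and Lamc1 encode the alpha, beta and gamma chain of laminin-111. Lama1 had a level of 11.2 ± 0.821 RPKM, below Lamb1 with 42.3 ± 4.64 RPKM and Lamc1 with 35.4 ± 3.42 RPKM. In each library the alpha chain was the lowest of the 3, at 10.7, 11.1, 12.4 and 10.7 RPKM in replicates 1 to 4. The beta chain had 38.7, 45.7, 46.8 and 37.8 RPKM and the gamma chain had 31.6, 36.2, 39.7 and 34.1 RPKM. Lamb1 was above Lamc1 in 4 of 4 libraries as deposited, by 1.19-fold, while per length of all exons Lamc1 was above Lamb1 in 4 of 4, by 1.38-fold.

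The allele differences of the 3 chains did not share a direction. Lama1 (chr17:67697259-67822647, plus strand) had 8.61, 8.81, 10.1 and 8.77 RPKM on S129 and 12.7, 13.4, 14.8 and 12.7 RPKM on CAST in replicates 1 to 4. Each CAST value was above each S129 value, and CAST was 1.47-fold higher (log2 −0.56, SE 0.03, limma adjusted p = 0.000226). The S129 share was 41.3% ± 0.50 (SD, n = 4).

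Lamb1 (chr12:31265234-31329644, plus strand, an rDNA-chromosome) had 35.9, 42.4, 44.2 and 35.5 RPKM on S129 and 41.5, 49.0, 49.3 and 40.2 RPKM on CAST. CAST was higher within each library while the ranges overlapped between libraries, and it was 1.14-fold higher (log2 −0.19, SE 0.03, limma adjusted p = 0.0061). Lamc1 (chr1:153218922-153332786, minus strand) had 33.6, 39.1, 43.3 and 36.8 RPKM on S129 and 29.7, 33.3, 36.2 and 31.4 RPKM on CAST. Here S129 was higher within each library, by 1.17-fold (log2 0.22, SE 0.03, limma adjusted p = 0.00401), again with overlapping ranges. Without the library as a block the differences of Lamb1 and Lamc1 did not pass (limma adjusted p = 0.196 and 0.0972), while those of Dab2 and Lama1 did. Over all alternatives the adjusted p was 0.00268 to 0.196 for Lamb1, 0.00168 to 0.0972 for Lamc1 and at most 0.00317 for Dab2 and Lama1.

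The genes next to the laminin genes had values of their own. Dhx9, the nearest tested gene beyond the higher-coordinate end of Lamc1, was higher on S129 as Lamc1 was (log2 0.13, limma adjusted p = 0.0281). Arhgap28, 20.1 kb from Lama1, differed by −0.09 (limma adjusted p = 0.254), whereas Ptprm at 343 kb differed by −0.33 (limma adjusted p = 0.0245). Of the neighbours of Lamb1, Dld at 1.63 kb did not pass (log2 −0.07, limma adjusted p = 0.254), and Sh3yl1 at 305 kb was higher on S129 in 4 of 4 libraries, opposite to Lamb1 (log2 0.29, limma adjusted p = 0.0363).

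Among the 8 other laminin chain genes 6 reached 1 RPKM, compared with 49.7% of all listed genes. With all exons 4 did, with reads of 1 gene not recovered, compared with 53.6% of genes with recovered reads. Of 6 tested, 1 was higher on S129 and 3 on CAST, beside 31.4% and 31.3% of all genes tested. Lama5 and Lamb2 had the highest deposited levels, at 182 and 37.1 RPKM. Per length of all exons, however, Lama5 was at 11.7 RPKM, near Lama1 with 11.0 RPKM, and Lamb2 at 2.02 RPKM. Lama3, an alpha chain of epithelial laminins, had the largest allele difference of this list and was higher on CAST (log2 −1.87). Lamc3 was listed at 0 in every library.

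**Figure D4:**
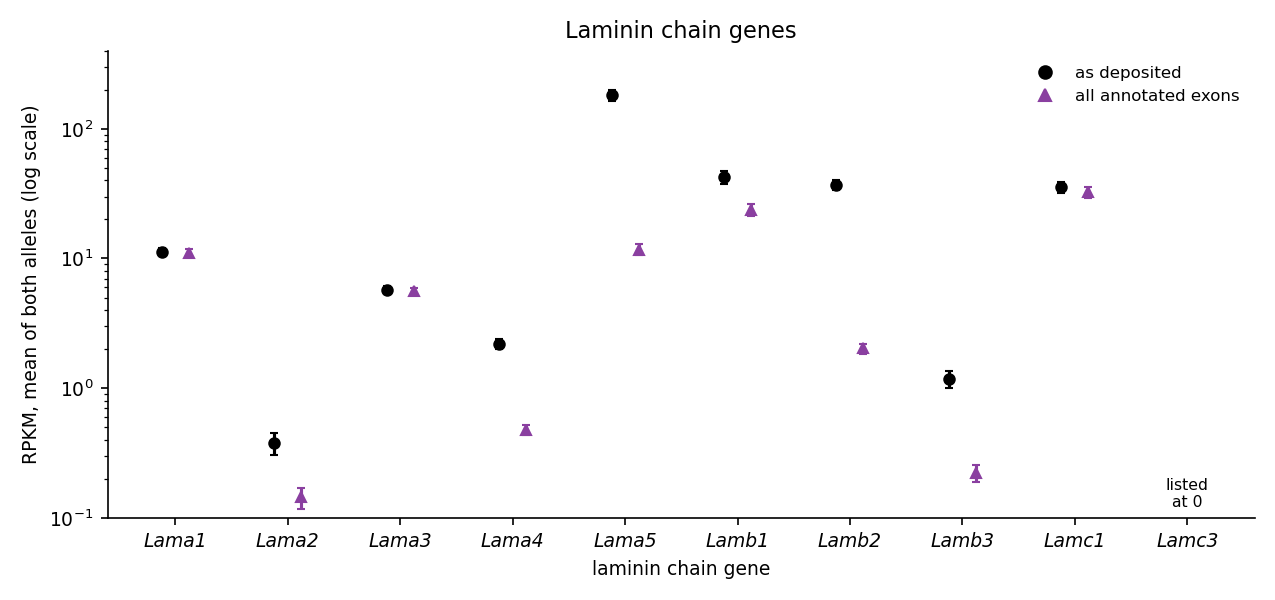
Level of 10 laminin chain genes (mean of both alleles, log scale, mean and SD of 4 libraries) as deposited (black) and per length of all annotated exons (purple). Per length of all exons Lamb1 is the highest of the beta chain genes shown, and Lama5 and Lama1 are the highest of the alpha chain genes, at 11.7 and 11.0 RPKM.

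The genes of proteins that work with laminin in the basement membrane were also examined. All 8 partner genes reached 1 RPKM as deposited and per length of all exons. Among all listed genes 49.7% did as deposited, and 53.6% of those with recovered reads did per length of all exons. The deposited median of the 8 was 68.1 RPKM. Highest were the collagen chaperone gene Serpinh1 at 234 RPKM and the perlecan gene Hspg2 at 152 RPKM, or 8.71 RPKM for Hspg2 per length of all exons. Of the 8 genes, 3 were higher on S129 and 4 on CAST, Serpinh1 with the largest difference among them (log2 −0.43). All 6 laminin receptor genes reached 1 RPKM, and 4 did per length of all exons. The integrin genes Itgb1 and Itga6 were highest at 69.8 and 43.3 RPKM. Of the 6, 3 were higher on S129 and none on CAST, Itga7 with the largest difference (log2 0.68). Among all genes tested 31.4% were higher on S129 and 31.3% on CAST.

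Upstream of Gata6, 16 of 17 genes of FGF and ERK signalling reached 1 RPKM, compared with 49.7% of all listed genes. Their median was 17.9 RPKM. Per length of all exons 13 reached 1 RPKM, with 2 genes without recovered reads, compared with 53.6% of the genes with recovered reads. As deposited, the ligand gene Fgf4 was highest at 324 RPKM, followed by the ERK target gene Etv5 at 109 RPKM. Per length of all exons Etv5 was instead above Fgf4, with 106 against 40.0 RPKM. Fgf4 did not pass the allele test, and 5 genes of the list were higher on S129 and 7 on CAST of 16 tested. The largest difference was that of the receptor gene Fgfr3, higher on CAST (log2 −2.33) at a level of 1.27 RPKM, or 0.171 RPKM per length of all exons. Grb2, the adaptor gene that links the receptors to RAS, was listed at 0.00931 RPKM. Genes that every cell uses can be near 0 in this table, so low values here say little of absent expression.

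Of the 10 other endoderm transcription factor genes, 2 reached 1 RPKM, compared with 49.7% of all listed genes. These were Hnf4a at 6.75 RPKM and the GATA cofactor gene Zfpm1 at 1.79 RPKM, and Foxa3 was at 0.980 RPKM. Per length of all exons Zfpm1 was at 1.73 RPKM, Foxa3 at 0.980 RPKM and Hnf4a at 0.603 RPKM, beside 0.686 RPKM for Gata6. Hnf4a was higher on S129 in 4 of 4 libraries (log2 3.66, limma), the largest difference of this list. Sox18 was listed at 0 in every library.

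The markers of the cells that a culture can hold were compared with the 10 genes, whose median was 7.27 RPKM. Among all listed genes 49.7% reached 1 RPKM as deposited, and 53.6% of those with recovered reads did per length of all exons. All 8 pluripotency genes reached 1 RPKM, with a median of 105 RPKM and Tfcp2l1 and Zfp42 highest at 583 and 512 RPKM, and per length of all exons these were at 29.5 and 500 RPKM. Nanog, the epiblast factor opposed to Gata6, stood at 84.5 RPKM and the SOX factor gene Sox2 at 125 RPKM. Among 12 visceral endoderm genes 5 reached 1 RPKM, with a median of 0.535 RPKM. With all exons 2 did, with reads of 2 genes not recovered. The highest were Hnf4a at 6.75 RPKM and Lrp2 at 4.24 RPKM (0.603 and 3.93 RPKM per length of all exons). Ttr and Afp were at 0.0245 and 0.136 RPKM. Apob, Amn and Rbp4, at 3.26, 1.18 and 1.12 RPKM, also reached 1 RPKM, with Apob at 0.262 RPKM per length of all exons. Among 6 parietal endoderm genes 5 reached 1 RPKM as deposited, with a median of 3.37 RPKM, and 4 did per length of all exons. Snai1 was listed at 0. As deposited the coagulation inhibitor gene Tfpi was highest at 69.4 RPKM (higher on CAST, log2 −0.83), followed by the keratin gene Krt19 at 57.3 RPKM. With all exons Krt19 was instead above Tfpi, at 48.6 against 25.7 RPKM. The 10 genes are named for a lineage and not for these cells. Each of the 8 pluripotency markers stood above most of the 10 genes but not all above the highest of them. The lowest marker was at 29.5 RPKM as deposited.

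Markers of fibroblasts, the feeder cells used before the feeder-free passages, were measured as well. Of 10 genes 7 reached 1 RPKM as deposited, compared with 49.7% of all listed genes. With all exons 6 did, compared with 53.6% of genes with recovered reads. The sum of the 10 fibroblast genes was 182 to 229 RPKM per library, compared with 234 to 277 RPKM for the 10 endoderm genes. Per length of all exons the sums were 27.7 to 34.3 RPKM, without Twist1, and 127 to 152 RPKM. As deposited, most of the fibroblast sum was Col1a2 at 166 RPKM, followed by Postn at 15.4 RPKM. Per length of all exons Col1a2 was at 11.3 RPKM and Postn at 5.52 RPKM, so there Col1a2 was not most of the sum. Thy1 had the largest allele difference of the list (log2 1.84, S129 higher), with 6 genes higher on S129 and 2 on CAST of 8 tested. Among all genes tested 31.4% were higher on S129 and 31.3% on CAST. Twist1 was listed at 0 and Lum at 0.0462 RPKM. The part of feeder RNA in Sparc, Pdgfra, Lamb1 or Lamc1 was not tested.

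Among 7 trophoblast genes 3 reached 1 RPKM as deposited, compared with 49.7% of all listed genes. With all exons 3 did, compared with 53.6% of genes with recovered reads. Tfap2c at 29.1 RPKM and Eomes at 2.92 RPKM were highest, and Hand1 had the only allele difference that passed (log2 0.62, S129 higher). Among 6 genes of mesoderm and definitive endoderm 2 reached 1 RPKM, also per length of all exons. These were T (Brachyury) at 8.89 RPKM (log2 −1.10, CAST higher) and Cxcr4 at 1.55 RPKM.

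**Figure D5:**
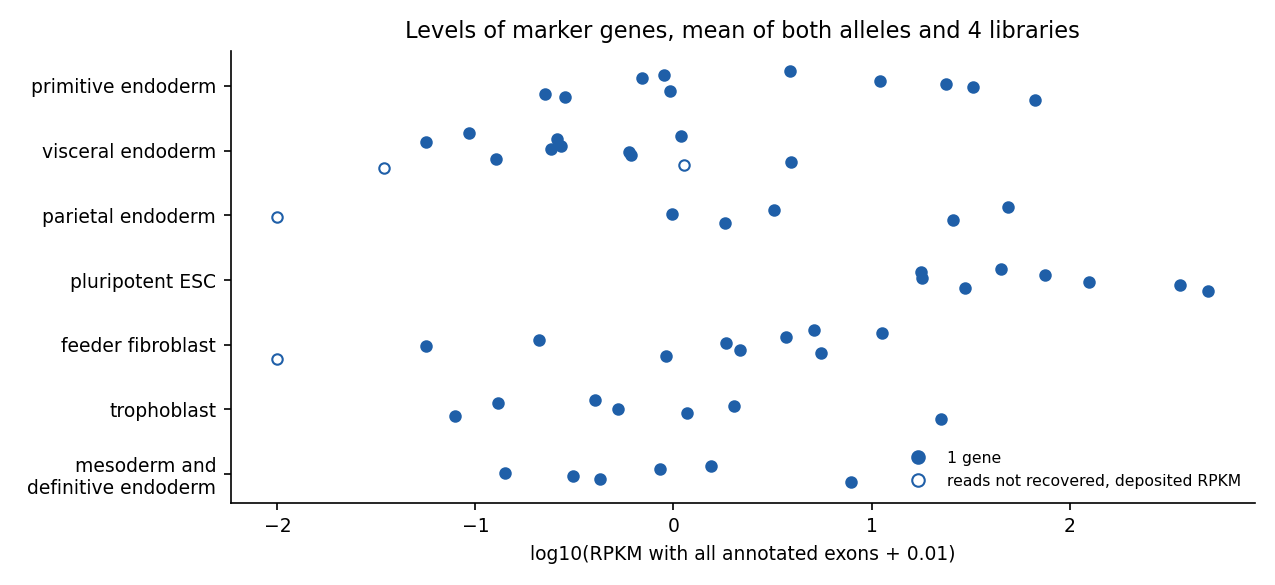
Level of each gene of 7 lists, as log10 of RPKM per length of all annotated exons plus 0.01, with 1 point per gene (mean of both alleles and 4 libraries) and open points for deposited RPKM where reads were not recovered. The 10 primitive endoderm genes extend from 0.214 to 67.2 RPKM on this scale, and all 8 pluripotency genes lie to the right of most of them.

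Between libraries, replicate 1 was the lowest for 5 of the 10 genes, and for 4 of the 8 that passed the filter, compared with 24.6% of all genes tested. Replicate 4, the library with the fewest reads, was the lowest for 4 of the 8, compared with 53.5%. Replicate 3 was the highest for 5 of the 8 (39.7% of all genes tested), replicate 2 for 2 (30.1%), replicate 1 for 1 (13%) and replicate 4 for none (17.3%). Replicates 2 and 3 were the lowest for none of the 8, compared with 10.6% and 11.3%. Replicate 1 was lowest for Sparc, Dab2, Lama1, Lamc1 and Sox7, whereas replicate 4 was lowest for Gata6, Gata4, Pdgfra and Lamb1. Apart from Gata6, SDs on the log2 scale ran from 0.07 for Sox7 to 0.16 for Lamb1. For Sparc, Lamb1 and Lamc1, which had at least 3431 reads in each column, the variance between libraries was 85.8, 128.9 and 129.5 times that from counting, so for these genes depth was not the limit.

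Some of the 10 genes overlap other annotated genes that could share reads with them. Mir7025 lies within Pdgfra and Gm38009 within Lamc1 on the same strand. Antisense or opposite-strand genes are annotated across Gata6 (1010001N08Rik), Sox17 (Gm37587), Pdgfra (Gm42802 and Gm42803), Dab2 (Gm16311 and Gm18888) and Lamc1 (Gm8818). The library kit was stranded, but whether the counting used the strand was not given in the sources used here, so reads of these pairs cannot be told apart.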

How the data were processed

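Polyadenylated RNA of 4 libraries was sequenced at 150 bp. Per the labels and methods, the authors trimmed reads with Trimmomatic 0.40, used STAR for alignment to mm10 with SNP positions masked and assigned them to alleles with SNPsplit. The authors deposited RPKM per gene, allele and library, and for each allele the average and log10 of this average plus 1, which were not used here. The counting program, its annotation and its use of strand were not given in the sources used here.

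Totals and gene lengths were recovered from the steps of the values (tolerance 0.02 reads), with whole reads for 19132 of 20243 genes above 0. For Gata6 and Lama1 they are the fewest reads possible. Alleles were compared by limma 3.58.1 (R 4.3.3) on log2(RPKM + 0.1) of S129 minus CAST in each library, over the 13341 genes whose alleles summed to 1 RPKM or more. Adding 0.1 understates differences of low genes. Both columns are reads of 1 library, so the library was the block. Adjustment was by the Benjamini-Hochberg method, and the script was tested on simulated data. Neighbours in the order were compared by exact sign-flip tests. Exact intervals (95%) cover counting error only.

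The members and lists were chosen with earlier results of these data known. From each list the text names the 2 genes of highest level and the called gene with the largest allele difference. For Gata6 the rule also takes the 3 most similar protein-coding genes and, for all 10 genes, the overlapping genes. Nanog, Sox2, Ttr, Afp, Apob, Amn, Rbp4, Foxa3, Grb2, the genes listed at 0 or near 0 and the flanking genes were named after their values were seen. Some items are not reported here. Alternatives covered pseudocount, filter, scaling, gene length, allele, block and each library.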

Additional observations from a re-analysis of the deposited data

Results flagged for a closer look

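The level of Sparc in replicate 1 was 106 RPKM, below the 124 to 127 RPKM of the other libraries, and its gap was large for the range of 4 values (Dixon's criterion). Of 20 quantities examined this was 1, and chance alone gives about 1 in 20. Both alleles of Sparc were lowest in replicate 1.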

How the results depend on the processing

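Without the library (replicate block) 2 of the 8 genes passed the allele test instead of 4, and 0 instead of 1 were higher on S129. Leaving out each library in turn gave 4 to 5 genes that passed, 3 to 4 of them higher on CAST. Of 114 alternative values of single genes, 107 kept direction and side of the threshold. The difference of Gata4 was reversed without replicate 1 (−0.10, with 0.21 at most when another library was left out), and that of Sox7 with a pseudocount of 1 and no filter, chosen after seeing the data (−0.00067). Pdgfra passed without replicate 4, and Sparc passed with genes of at least 5 RPKM and, at an adjusted p of 0.044 (limma), with a pseudocount of 1 and no filter.

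The median level of the 10 genes, 7.27 RPKM, became 2.41 RPKM per length of all exons, 3.74 RPKM per length of the longest transcript (chosen after seeing the data), 6.09 RPKM on S129 alone and 8.46 RPKM on CAST alone. It was 7.06 to 7.40 RPKM when a library was left out. The median SD between libraries, 0.12 on the log2 scale, was 0.17 on S129 alone. The causes were not tested. Of the 10 genes 8 reached 1 RPKM, 5 per length of all exons and 6 if the length of Gata6 is doubled as well (both chosen after seeing the data). Of 106 list genes 75 reached 1 RPKM, 62 per length of all exons (chosen after seeing the data, 10 genes without recovered reads). The depth limits Sox17 and Sox7 most, with 12 to 38 reads a column.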
